A study of Homo sapiens with 37 samples.

Results

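These data are the total RNA of heat-shocked cells: the input libraries labelled T20 and T4, set against the unstressed T0 inputs. They were chosen by sample title and column name, which gave 5 of the 37 libraries of the series, 2 at T0, 1 at T4 and 2 at T20. All came from HEK293T, a human embryonic kidney line, carrying APEX-eIF4A, a peroxidase joined to the RNA helicase of translation initiation. T20 and T4 carry the stress label heat shock and T0 the label naive; the labels give no unit for the number after T, no temperature, and no statement that the cells are 1 clone. The protocol in the labels lists 500 µM biotin-phenol for 30 min and 1 mM H2O2 for 1 min, and T0 is given the same protocol as T20. An input is the RNA before biotinylated RNA is enriched on streptavidin beads, so it reads the RNA content of the cells and not what lies near eIF4A.

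Heat shock is a classic stress in which heat-damaged proteins release the transcription factor HSF1, which then switches on genes for chaperones. Transcription of many other genes falls in stressed cells, translation of most mRNAs slows, and RNA polymerase can run past the ends of genes into regions that are otherwise silent. The comparison of T20 with T0 in inputs asks which RNAs had changed in relative level in the cells as a whole, apart from any change in their position. Levels are relative to the other RNAs of a library, so amounts per cell cannot be read. With bulk RNA, a change in every cell and a larger change in some cells cannot be told apart.

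The count table lists RNAs by versioned Ensembl gene IDs without names, and 0 of its 60483 IDs could be matched to a symbol in the gene table used here. Chaperone genes, other stress genes and the markers of HEK293T cells could therefore not be looked up, and results are given for sets of IDs and for 4 printed IDs, with no name, role or sequence.

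Total counts were 6721920 and 5003887 at T0, 6881398 at T4, and 4540426 and 5687572 at T20. T0 replicate 2 stood apart: its 10 highest IDs held 22.0% of counts, against 7.39% to 14.7% in the other 7 inputs of the stress table, it had the fewest detected IDs (20706), and its TMM factor was 0.762 against 1.00 to 1.14 in the other 4 libraries. Level correlations across 16825 IDs were 0.957 for the T20 pair and 0.924 for the T0 pair. T4 correlated at 0.972 with T0 replicate 1, at 0.924 with T0 replicate 2, and at 0.91 and 0.92 with the T20 libraries. IDs are not independent replicates. The other 3 inputs of the table, 2 titled hip (hippuristanol, an inhibitor of eIF4A) and 1 titled DMSO, served as further libraries outside the T20, T4 and T0 set. The hip inputs carry the stress label heat shock although their titles name the drug, so their values are given under their titles.

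More gene IDs were detected in the T20 inputs than in any other input of the table. At least 1 count was found for 26045 and 27549 IDs at T20, against 24568 and 20706 at T0, although the T20 libraries together held fewer counts. Brought to an equal depth of 4540426 counts by exact rarefaction, the expected number was 26045 and 26981 at T20 and 23612 and 20551 at T0, with 23504 in the single T4 library. The hip inputs gave 21571 and 23780 and the DMSO input 21844 at that depth. The T20 libraries lay above all 6 others, and the means were 26513 ± 662 at T20 and 22082 ± 2165 at T0 (SD, n = 2 each; exact two-sided permutation p = 0.333, the smallest that 2 against 2 libraries can give).

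The additional IDs were looked at in a set chosen without the T20, T4 or T0 libraries. Of the 60483 IDs, 32776 had 0 counts in all 3 hip and DMSO inputs. At the same equal depth, 2464 and 3015 of these were detected at T20, against 1217 and 622 at T0, and 1220 in the T4 library. With no thinning, 77 and 228 of them reached at least 10 counts at T20, against 6 and 15 at T0, and 14 at T4. A wider set of 41194 IDs lay under 1 CPM (counts scaled to a common library total) in each of those 3 inputs. It took 0.661% and 0.844% of all counts at T20, against 0.260% and 0.190% at T0, and 0.276% at T4. For both sets the T20 and T0 libraries did not overlap, and the T4 library lay close to T0 replicate 1.

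**Figure D1:**
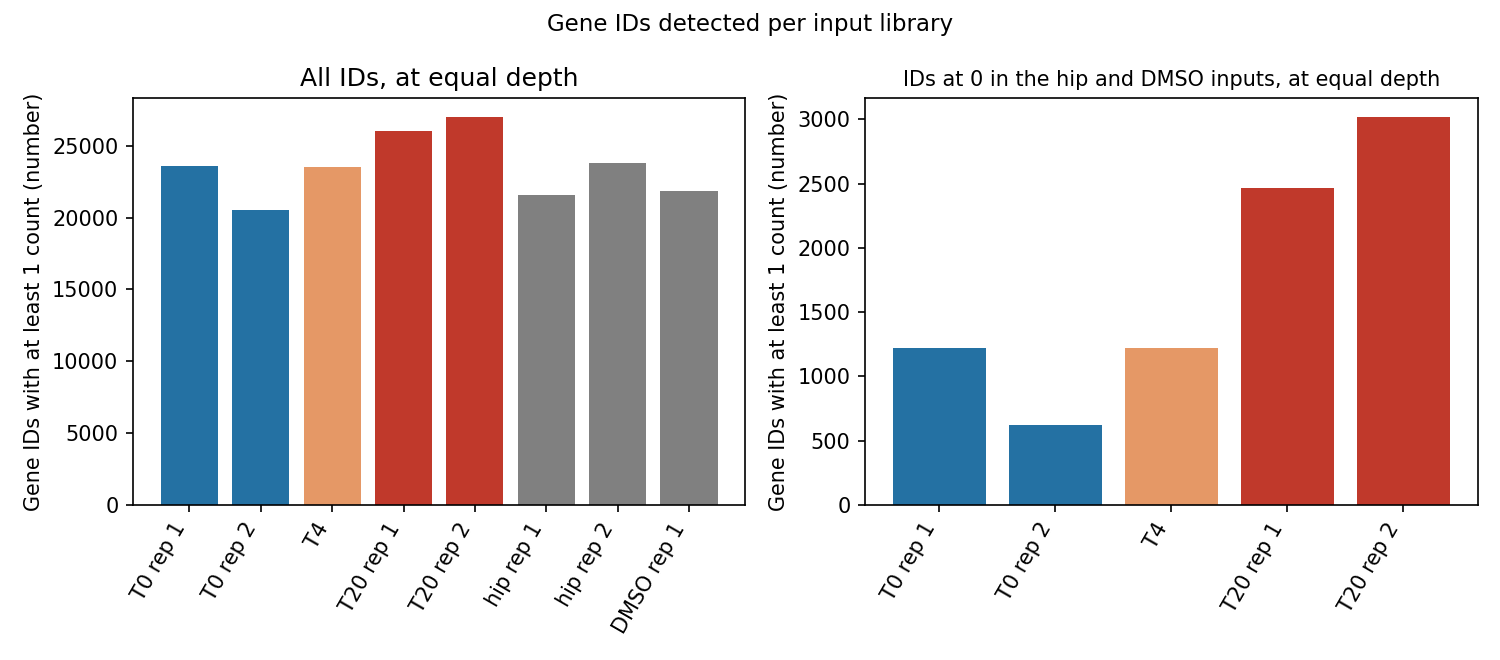
Number of gene IDs with at least 1 count in each input library after rarefaction to 4540426 counts (left, all IDs; right, the 32776 IDs with 0 counts in the hip and DMSO inputs). Each bar is 1 library. Both T20 bars stand above all others in each panel, and the T4 bars (23504 and 1220) are close to those of T0 replicate 1 (23612 and 1217).

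Some IDs had a clear signal at T20 and no counts at T0. With 0 counts in both T0 inputs and at least 10 in each T20 input there were 85 IDs, and the reverse pattern, 0 in both T20 inputs and at least 10 in each T0 input, was met by 0 IDs. When 5 counts were enough, 310 IDs met the first pattern and 4 the reverse. The median count of the 85 was 18 and 20 in the T20 libraries and the highest was 175. In the T4 library 36 of the 85 had 0 counts, the median was 1 and the highest 17. In the hip and DMSO inputs 25 of them had 0 counts in all 3 libraries, and no count exceeded 20. Of the 85, 80 also had 0 counts in both T0 pulldowns, while 18 had counts in both T20 pulldowns and 5 in the T4 pulldown; the pulldowns held 707356 to 1171918 counts at T0, T4 and T20, so an ID at 0 there may have been missed. Leaving out single libraries moved the number of such IDs to between 136 and 469, always in favour of T20 (the reverse count then ran from 1 to 8).

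In the test across all genes, 303 IDs rose and 1 fell at T20 relative to T0, by edgeR's quasi-likelihood test with Benjamini-Hochberg adjustment and an adjusted p under 0.05. That was 1.81% of 16825 tested IDs, 1.80% called higher and 0.00594% called lower. At an unadjusted p under 0.05 there were 1808 higher and 474 lower IDs (13.6% of those tested), where 841 in all would arise with no change. An increase of at least 2-fold was fitted for 2355 IDs and a decrease of that size for 394. All these counts depend on which IDs the filter on low counts admitted. It admitted 2440 IDs through the T20 libraries only and 270 through the T0 libraries only. Their median log2 fold changes were 1.47 and -0.87. Among the 100 risen IDs with at least 100 counts in each T20 library, 7 fell into 3 groups of linked IDs. Each was linked to at least 1 other by a correlation across libraries of at least 0.95 and T20 counts within 10%. The lowest correlation in the group of 3 IDs was 0.93, and in a group of 2 the T4 levels were 5.23 and 22.8 CPM. With each group counted once 299 of the 303 were left, and whether grouped IDs share reads was not tested. For example, 3 of the IDs with the smallest adjusted p (0.000212 to 0.000919) had 50.4 to 52.5 and 47.9 to 48.5 CPM in the T20 libraries, 1.02 to 1.16 CPM at T4, and at most 5 counts in a T0 library.

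The number of calls depended on scaling and on which libraries shared the estimate of spread. With library size in place of TMM scaling, which moved the median log2 fold change of all tested IDs to 0.197 from -0.03, edgeR called 0 IDs, with 1912 higher and 58 lower at an unadjusted p under 0.05. DESeq2, which was run with its own size factors and not with library size, called 402, 382 higher and 20 lower. Without T0 replicate 2 the call was 902 higher and 207 lower, and all 303 IDs were again called; without T0 replicate 1 it was 1540 and 602, and with a T20 library left out 110 or 106 higher and 1 lower.

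**Figure D2:**
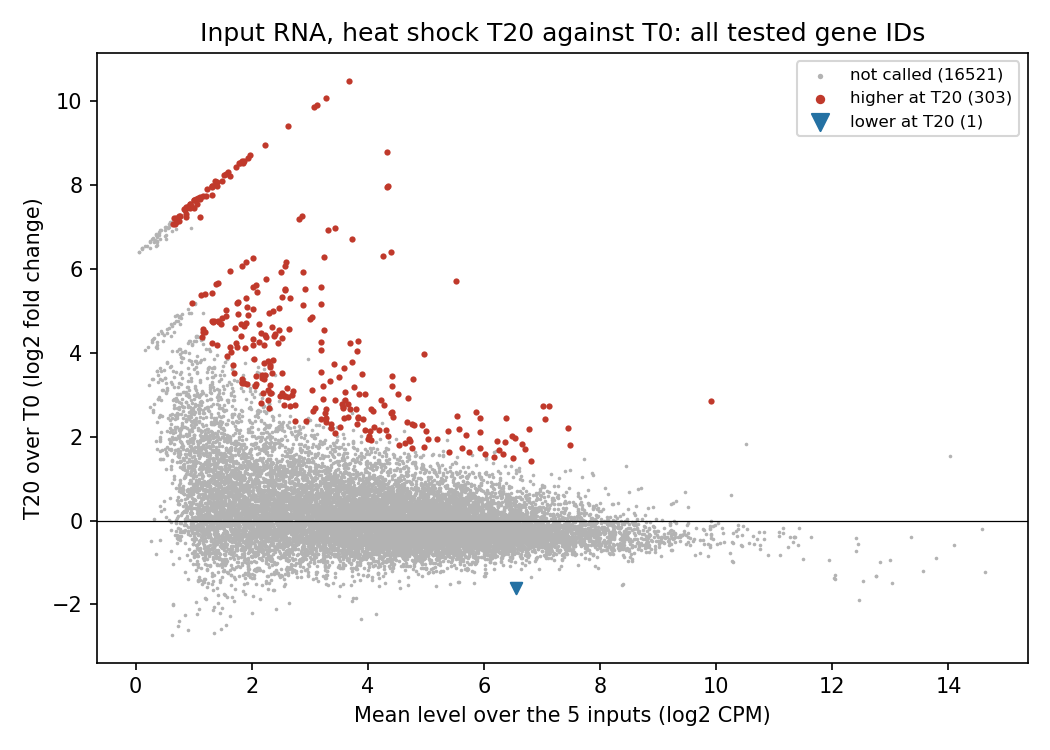
Log2 fold change of T20 over T0 inputs (vertical axis) against the mean level in log2 CPM over the 5 inputs (horizontal axis) for each of 16825 tested gene IDs; red points rose (303), the blue triangle fell (1), grey points were not called. The red points reach from 1.43 to 10.49 and lie mostly at low mean levels, and the straight rows of points at the upper left are IDs with 0 or very few counts in the T0 libraries, whose fitted fold depends on the prior count.

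The IDs that rose were mostly of low abundance at T0. Of the 303, 58 had 0 counts in both T0 libraries and 122 had at most 3 counts in each. For the 58, the rise was at least 4.8-fold to at least 51.3-fold against a floor of 3 counts per T0 library. The fitted median over the 303 was a log2 fold change of 4.07, and 3.22 with the 58 IDs set at their bound, beside -0.03 over all tested IDs. Of the 303, 211 passed the filter on low counts through the T20 libraries only, which favours IDs that are higher at T20 without requiring it. The other 92 passed it in the T20 and the T0 libraries, as did 13629 tested IDs in all, of which 0.675% were called higher and 1 ID lower; for these 92 the log2 fold change had a median of 2.28 and ran from 1.43 to 3.97, beside a median of -0.12 over the 13629.

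Among the better expressed IDs, 43 of the 303 had a mean of at least 10 CPM at T0. Their median level was 30.6 and 31.5 CPM in the T0 libraries, 33.1 CPM at T4, and 117 and 113 CPM at T20. It was 32.4 and 41.4 CPM in the hip inputs and 32.0 CPM in the DMSO input. That T20 lies above T0 is fixed by the choice of the IDs. The fold of T20 over T0 for these 43 IDs ran from 2.69 to 7.21 with a median of 3.85.

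The risen IDs took 1.10% and 1.29% of all counts in the T20 libraries, against 0.206% and 0.148% at T0. The single T4 library gave 0.257% (95% Wilson interval 0.253% to 0.261%, for counting error only), the hip inputs 0.341% and 0.332%, and the DMSO input 0.311%. T4 thus lay inside the range of the libraries that are not T20. The T20 and T0 values were used in choosing these IDs, which favours high values at T20 and low values at T0. The T4 library was in the fit with a mean of its own and was not part of the contrast; the hip and DMSO values were not used. The hip inputs, whose stress label reads heat shock, lay near the DMSO input and far from T20. Because the IDs were chosen for high T20 values, this distance cannot show whether the hip inputs were heat-shocked.

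The median level of the 303 IDs was 0.02 and -0.19 log2 CPM at T0, 0.85 at T4, and 3.66 and 3.69 at T20. Over all tested IDs the library medians ran from 4.19 to 4.39 log2 CPM in the 8 inputs, so the risen IDs at T20 came near the level of a typical tested ID. The median absolute difference between the T20 libraries was 0.36 log2 units for the risen IDs and 0.35 for all tested IDs. Of the 303, 24 differed by over 2-fold between them. Between the T0 libraries the median difference was 0.53 for the risen IDs and 0.57 for all tested IDs. A call favours IDs whose replicates are alike, so the values for risen IDs are a description only.

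**Figure D3:**
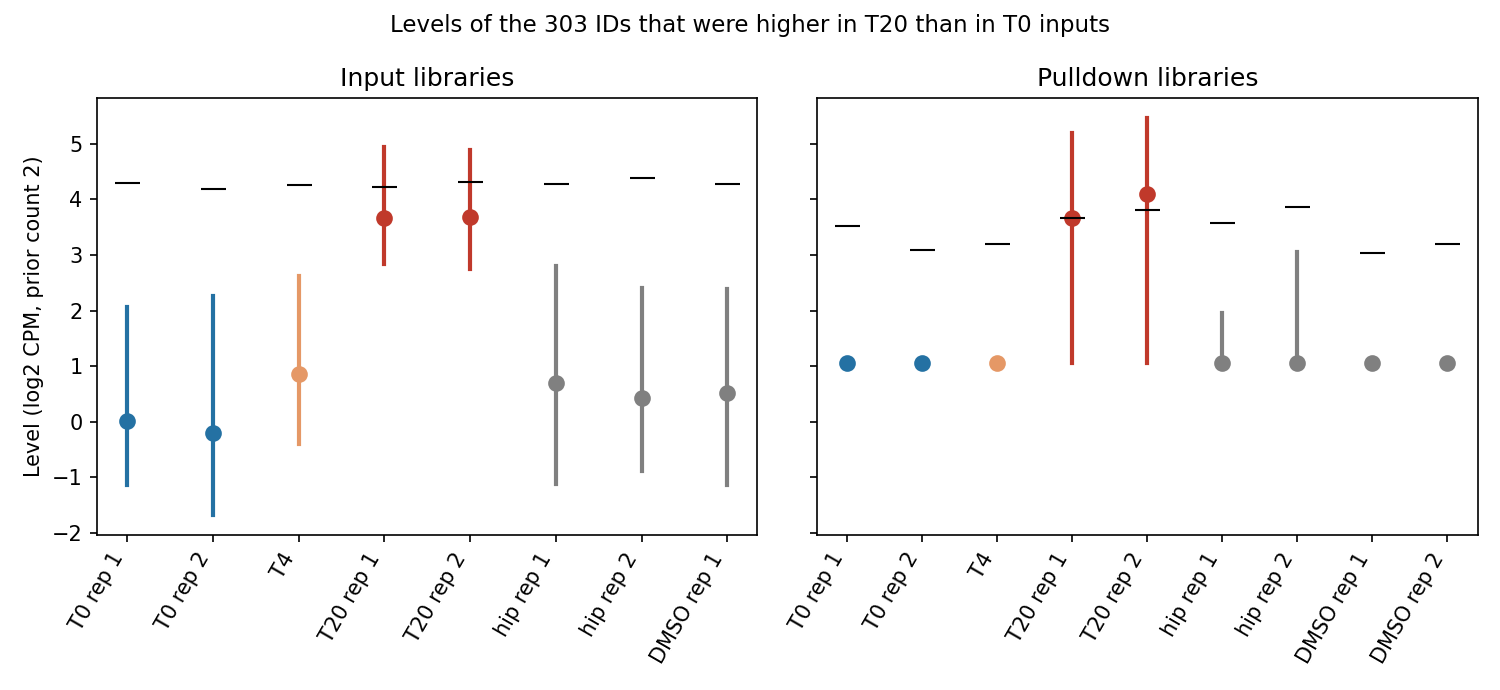
Level in log2 CPM (prior count 2) of the 303 IDs that rose, in each input (left) and pulldown (right) library; points are medians over IDs, lines span the lower to the upper quartile, and black dashes mark the median of all tested IDs. The T20 medians are 3.66 and 3.69 in inputs and 3.66 and 4.1 in pulldowns, and every other library lies at 0.85 or lower in inputs and at 1.06, the value of an ID with 0 counts, in pulldowns.

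The pulldowns of the same experiment are separate libraries that played no part in choosing the IDs. There, both T20 libraries lay above both T0 libraries for 155 of the 256 risen IDs with a count in these 4 libraries (60.6%), beside 20.2% of the 15273 tested IDs with a count there and 14.3% with both T20 libraries below. Most risen IDs had 0 counts in a T0 pulldown, below which T20 cannot lie, so no count in that direction is given for them and the share above is given as a description. The other 47 risen IDs had no count in them. The risen IDs took 1.17% and 1.32% of counts in the T20 pulldowns, against 0.193% and 0.0826% in the T0 pulldowns, and 0.193% in the T4 pulldown. At T0, 233 and 237 of the 303 had 0 counts in the pulldowns, against 97 and 80 at T20. The labels do not say whether an input and a pulldown of the same number came from the same cells.

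The shift also differed with abundance. Grouped by level in the hip and DMSO inputs, the 1999 tested IDs of at least 100 CPM had a median log2 fold change of -0.30 (lower to upper quartile -0.50 to -0.05), with 5 risen and 1 fallen. The 8881 IDs from 10 to 100 CPM had a median of -0.11 (-0.40 to 0.23) and 46 risen. The 4932 from 1 to 10 CPM had 0.29 (-0.24 to 0.99) and 110 risen, and the 1013 under 1 CPM had 2.13 (0.88 to 3.65) and 142 risen. The share called higher was 0.250%, 0.518%, 2.23% and 14% in that order; in the lowest groups the filter on low counts favours IDs that are high at T20. These medians are relative to TMM scaling. With library size the median over all tested IDs was 0.197, and medians for these groups were not computed.

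In the 142 risen IDs under 1 CPM in the hip and DMSO inputs, the median level was 7.38 and 7.0 CPM at T20, against 0.140 and 0 CPM at T0. In the 46 from 10 to 100 CPM it was 70.2 and 89.4 CPM at T20, against 18.6 and 19.1 CPM at T0, and in the 5 of at least 100 CPM it was 153 and 161 CPM at T20, against 57.1 and 53.3 CPM at T0. The corresponding T4 medians were 0.447, 23.5 and 73.3 CPM. In each group both T20 libraries lay above both T0 libraries, as the choice of the IDs requires.

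The 2 risen IDs printed here were chosen after their values were seen. ENSG00000245532.5 had the highest T20 level of the risen IDs. It measured 302 and 236 CPM at T0, 401 CPM at T4, and 1749 and 2134 CPM at T20. The hip inputs gave 378 and 421 CPM and the DMSO input 270 CPM, scaled over all 8 inputs. Its T4 value was above both T0 libraries but below 1 of the hip inputs, and both T20 libraries stood far above all others. The log2 fold change of T20 over T0 was 2.85 ± 0.38 (SE; edgeR adjusted p = 0.00335), with means of 1942 ± 272 CPM at T20 and 269 ± 46.4 CPM at T0 (SD, n = 2 each). In pulldowns it measured 1000 and 1628 CPM at T20 and 429 and 196 CPM at T0, with 277 CPM at T4.

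ENSG00000261026.1 had the smallest edgeR p among risen IDs with at least 3 counts in each T0 library. It had 19 and 4 counts at T0, 93 counts at T4, and 532 and 622 counts at T20. Scaled, that was 2.60 and 1.05 CPM at T0, 13.5 CPM at T4, and 113 and 96.8 CPM at T20. The T4 library lay between the groups, overlapping neither, and above the hip inputs (2.48 and 4.70 CPM) and the DMSO input (2.51 CPM). The log2 fold change was 5.72 ± 0.49 (SE; edgeR adjusted p = 0.000212), with means of 105 ± 11.2 CPM at T20 and 1.83 ± 1.09 CPM at T0 (SD, n = 2 each). The T20 pulldowns held 103 and 37 counts and the T0 pulldowns 0 counts, which allows up to 4.0 and 6.47 CPM there, and the T4 pulldown held 12 counts.

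The 1 ID that fell was ENSG00000184992.10. It measured 133 and 152 CPM at T0, 92.2 CPM at T4, and 46.8 and 46.5 CPM at T20. The hip inputs gave 185 and 156 CPM and the DMSO input 236 CPM, so the T20 libraries were the lowest and T4 the next. The log2 fold change was -1.61 ± 0.32 (SE; edgeR adjusted p = 0.0243), with means of 46.6 ± 0.177 CPM at T20 and 142 ± 13.5 CPM at T0 (SD, n = 2 each). The call was lost in 5 of 14 alternative fits, 2 of them without a T20 library (edgeR adjusted p = 0.463 and 0.598). Its T20 pulldowns lay below its T0 pulldowns, at 54.8 and 32.6 CPM against 82.6 and 132 CPM, and its T4 pulldown, with 4 counts, was lower still at 4.69 CPM.

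The next ID on that side, ENSG00000144231.9, did not pass the test. It measured 59.9 and 65.5 CPM at T20 against 144 and 173 CPM at T0, with 116 CPM at T4, a log2 fold change of -1.34 ± 0.32 (SE; edgeR adjusted p = 0.0541). The groups did not overlap, and the hip inputs (146 and 105 CPM) and the DMSO input (134 CPM) lay above T20. DESeq2 called it (adjusted p = 0.00848), as did 5 other alternatives. The 474 IDs that were lower at an unadjusted p under 0.05 had a median log2 fold change of -0.99 and reached -2.73, with median levels of 48.1 CPM at T0, 40.1 CPM at T4 and 24.9 CPM at T20.

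**Figure D4:**
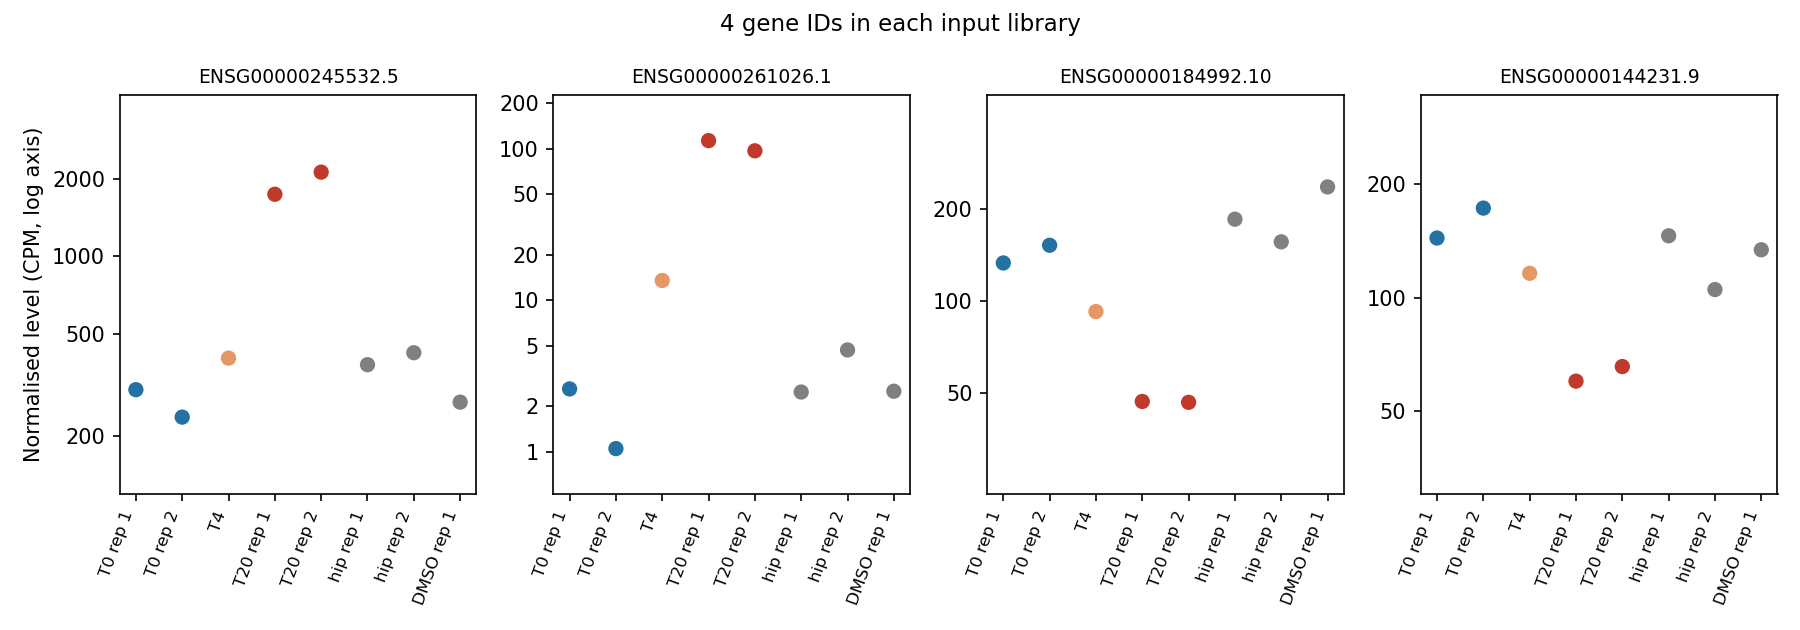
Normalised level in CPM (log axis) of 4 gene IDs in each of the 8 inputs of the stress table, 1 point per library; blue is T0, orange T4, red T20 and grey the hip and DMSO inputs. The first panel spans 236 to 2134 CPM and the second 1.05 to 113 CPM with T20 highest; in the other panels T20 is lowest, at 46.5 and 46.8 CPM and at 59.9 and 65.5 CPM.

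Risen IDs also lay beside each other in the table more often than tested IDs at large. With tested IDs kept in file order, 23 of the 303 (7.59%) had a risen ID in the row before or after, beside 3.55% of all 16825 tested IDs. The sources used here do not say what the row order stands for, and neighbouring IDs may share reads.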

How the data were processed

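The deposited values are raw counts per versioned Ensembl gene ID, whole numbers with no normalisation. Per the submitters' processing notes, cutadapt, HISAT2 and featureCounts were used with GRCh38; tool versions, strandedness and how multiply matching reads were handled are not given in the sources, so IDs that overlap or copy another are uncertain. Libraries were grouped by title; a column name shared by 2 samples was read as the DMSO input. Nothing says that replicates were separate cultures. The p-values then reflect the spread within the T20 and T0 pairs, possibly technical. The single T4 library adds no residual degree of freedom. Chi-square statistics per ID were 12.4 for the T20 pair and 77.3 for the T0 pair. Their expected counts came from count totals without TMM scaling, so differences that TMM would adjust for enter them. On that scale neither pair agreed within sampling noise, and other pairs were not compared this way.

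The T20, T4 and T0 inputs were fitted with edgeR 4.0.16 in R 4.3.3: filterByExpr on T20 and T0, TMM, robust quasi-likelihood F test (2-sided), a mean per group, 2 residual degrees of freedom, Benjamini-Hochberg adjustment over 16825 IDs. T4 has 1 library and no test. CPM values for hip and DMSO inputs and for pulldowns were scaled over the 8 inputs and 9 pulldowns; log2 CPM used a prior count of 2. The fit was tested on simulated data. Gene lists, cell markers and the naming rule all need symbols and were not used. The IDs printed, lists and tests were chosen with earlier results of these data known. Alternatives were library size and RLE scaling, DESeq2 1.42.0, other count filters, other sets of libraries, a replicate block, and each library left out.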

Additional observations from a re-analysis of the deposited data

How the results depend on the processing

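The number of called IDs was 304 (303 higher). It stayed within 1.5 times with RLE factors, DESeq2, at least 50 counts, only the 4 T20 and T0 inputs, and the replicate block, which called 329 (328 higher, 271 of the 303 among them). With library size in place of TMM edgeR called 0 (1970 at an unadjusted p under 0.05; DESeq2, run only with its own size factors, called 402), with all 8 inputs 106, with all 17 libraries 1, and with no count filter 611. Leaving out 1 library, which leaves a lone library assumed to vary like the other pair, gave 107 to 2142. The replicate numbers were not taken to pair libraries. Across 6104 IDs, the deviations of replicate 1 from replicate 2 correlated at -0.687 between T20 and T0. With those of the hip pair, they correlated at 0.649 for T20 and -0.774 for T0. With the numbers crossed, added after seeing the data, the block called 2069 (1445 higher). The cause of these differences was not tested. The 85 IDs seen at T20 and not at T0 became 310 with 5 counts and 32 with 20 counts, and 136 to 469 with 1 library left out, since these rules admit more or fewer IDs by construction. No printed ID reversed its direction in 14 alternatives: log2 fold changes ran from 2.65 to 3.07 for ENSG00000245532.5, 5.29 to 6.61 for ENSG00000261026.1, -1.70 to -1.35 for ENSG00000184992.10 and -1.47 to -1.07 for ENSG00000144231.9. The first lost its call with library size (edgeR adjusted p = 0.0634), the second with library size and all 17 libraries (0.0508 and 0.585). No alternative was run for gene lists, which could not be applied. Depth limits the low end: 122 of the 303 had at most 3 counts in each T0 library.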
